A study of Mus musculus with 33 samples.

Results

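The 10 genes described here encode proteins that neutrophils store in their granules or hold in bulk in their cytosol. They are Mpo, Elane, Prtn3, Ngp, Ltf, Camp, Lcn2, Mmp9, S100a8 and S100a9. Each was matched by its symbol, and all 10 were found among the 25965 genes of the chondrocyte table and among the 27825 genes of each of 3 tongue tables. The genes were chosen by their known role and with their levels in the chondrocyte samples in view. Those levels and the genotype differences in the same samples are therefore a description, with no test.

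Neutrophils and their precursors fill their granules in a fixed order during maturation. Promyelocytes make the azurophil granules, which hold myeloperoxidase and the serine proteases, myelocytes and metamyelocytes make the specific granules, which hold lactoferrin and cathelicidin, and later cells make the gelatinase granules. The calcium-binding proteins S100a8 and S100a9 form a heterodimer in the cytosol of neutrophils and monocytes. The mRNA of most granule proteins is present while that granule type is made and declines later, so a cell's granule mRNAs reflect its stage. In late fetal mice such cells arise mainly in the liver and begin to settle in the marrow of the growing bones, ribs included.

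The series compared wild type mice with mice in which both alleles of Zac1 (Plagl1), an imprinted gene of a zinc finger transcription factor, are active. The labels name the second genotype Zac1 biallelic expressing, and for the tongues they trace it to a Zac1o knockout line. Costal chondrocytes came from rib cages of E18.5 embryos, 6 biallelic (animals 1 to 6) and 5 wild type (animals 7 to 11). The rib cages were digested with trypsin and collagenase, and live cells positive for Cd24a and Cd200, the gate that the labels give for prehypertrophic chondrocytes, were sorted. RNA from around 2000 cells per sample was made into SMART-seq2 libraries, a method that amplifies polyadenylated RNA of few cells and does not mark strand. Whole tongues were taken at E13.5, P0 and P20, 3 biallelic and 3 wild type at each stage, for strand-specific libraries of total RNA depleted of ribosomal RNA. Litter and sex were not used here. All levels are RPM, reads scaled to a fixed library total, with no correction for gene length unless stated. The chondrocyte RPM values rest on totals of 7221013 to 15689559 reads (biallelic) and 2938462 to 7887305 reads (wild type). A count of 0 there allows up to 3 reads, which is 0.191 to 1.02 RPM depending on the library, counting error only.

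Wild type animals 7, 8 and 9 stood apart from the other 8 in the chondrocyte table. On the first principal component of all tested genes they lay at 64.3, 79.8 and 89.8, and the others lay between -52.2 and 17.2. Animals 7, 8 and 9 also had the most genes at 0 reads, 12711, 12760 and 12679, against 9530 to 12479 in the others. Reads on the table's genes were 57.98, 55.45 and 61.03% of their totals, against 60.4 to 65.8% in the others. The part of library quality in this split was not tested. Results that rest on animals 7, 8 and 9 are given with and without them. For biallelic animals 1 to 4 the labels list 2 libraries each and the table holds 1 column each, with no account of how these were merged in the sources used here. Repeat libraries are listed for biallelic animals alone. The other biallelic animals have 1 library each, as the wild type animals do, so merging and genotype coincide only in part. The part of merging in the genotype differences was not tested. Plagl1 followed the genotype labels, with all biallelic values above all wild type values in each of the 4 tables, with 17.6 to 49.99 RPM against 3.18 to 15.3 RPM in the chondrocytes.

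The sorted cells carried transcripts of the gate genes, of cartilage and of leukocytes together. Cd24a was at 28.7 to 55.6 RPM and Cd200 at 4.78 to 21.3 RPM over the 11 animals. Col2a1, the main cartilage collagen, was at 154 to 760 RPM, Col9a1 at 3.11 to 85.9 RPM and Col11a2 at 10.6 to 31.99 RPM. Of the genes that define the prehypertrophic and hypertrophic zones, Ihh had 0 reads in 9 of 11 animals, Pth1r in 7, Panx3 in 9, and Col10a1 stayed at or below 0.638 RPM. Ptprc, the pan-leukocyte surface phosphatase CD45, was at 234 to 544 RPM. In bulk samples such as these, fewer cells of a type and less RNA per cell cannot be told apart.

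The 10 genes lie on 5 chromosomes of GRCm38, the build of the files, which give the positions that follow. The azurophil proteases Prtn3 (chromosome 10, 79874476 to 79883174) and Elane (chromosome 10, 79886312 to 79888216) are next to each other, 3137 bases apart on the plus strand. S100a8 (chromosome 3, 90669071 to 90670034, plus strand) and S100a9 (chromosome 3, 90692632 to 90695721, minus strand) are neighbours in the table with 22597 bases between them. The cathelicidin gene Camp (109847375 to 109849456), Ngp (110419750 to 110423010) and the lactoferrin gene Ltf (111019292 to 111042766) share a stretch of 1.2 Mb of chromosome 9. Lcn2 (32384633 to 32387797) and Mmp9 (164940780 to 164955850) are both on chromosome 2, and Mpo is on chromosome 11 (87793581 to 87804413). In GENCODE vM21 the spans of Mpo and Prtn3 overlap genes of the opposite strand, Gm11505 and Plppr3.

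Promoters of the granule genes are shown because the 3 azurophil members share an 8-letter word that few promoters have. RefSeq promoters (GRCm38.p6, 250 bases before to 50 after the start site) were found for 9 of the 10 genes, all but Mmp9. The word GAGGAAGT, a spelling of the ETS type that PU.1, a factor of myeloid cells, is known to bind, was found on either strand in Mpo, Elane, Prtn3 and S100a8. It occurs in 3.2% of all 32851 promoters of the same length. The word TTGCNNAA, a spelling of the type that C/EBP factors of the granulocyte lineage bind, was found in Ngp, Ltf, Lcn2 and S100a9 and in 10.8% of all promoters. Camp had neither word. Distances below count from the RefSeq start site. For Mpo, Prtn3 and Ngp that site lies inside the gene span given above, not at the span's first base. The 60-base windows below read 5′ to 3′ on the gene's strand, with the word in capitals.
Mpo, chr11:87793534-87793593, word 224 bases before the start site: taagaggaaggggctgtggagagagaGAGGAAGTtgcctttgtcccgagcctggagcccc
Elane, chr10:79886201-79886260, word 85 bases before the start site: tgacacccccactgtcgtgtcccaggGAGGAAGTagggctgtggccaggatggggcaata
Prtn3, chr10:79879546-79879605, word 95 bases before the start site: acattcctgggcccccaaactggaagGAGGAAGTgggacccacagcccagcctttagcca
Ngp, chr9:110419644-110419703, word 138 bases before the start site: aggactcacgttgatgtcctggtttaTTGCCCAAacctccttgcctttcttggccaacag
These words were chosen for display after 10 spellings had been searched on both strands. Brackets give, for the spellings not displayed, the share of the 9 member promoters and of all promoters. Beside TTGCNNAA they were its looser form TTNNGNAA (5 of 9, 40.7%) and the palindrome TTGCGCAA (0 of 9, 0.183%). Beside GAGGAAGT they were its core GAGGAA (6 of 9, 28.3%) and the longer AGAGGAAGT (1 of 9, 1.0%). The others were the TATA box TATAAA (2 of 9, 13.6%) and the box CCAAT (3 of 9, 37.4%). With them were the RUNX word TGTGGT (2 of 9, 16.8%) and the MYB word AACTG (6 of 9, 44.8%). The spellings overlap, since GAGGAAGT contains GAGGAA and lies within AGAGGAAGT. A match is a description of the letters, not a measured site, and the series holds no binding data.

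Among the azurophil genes Mpo, which encodes the peroxidase that makes hypochlorous acid, ranged from 0 reads to 278 RPM. Its 6 biallelic values ran from 0 to 44.04 RPM with a median of 2.71 RPM. The wild type animals 7 to 11 had 153, 47.99, 278, 12.2 and 0 RPM. Animals 7, 8 and 9 were the highest of all 11, biallelic animal 5 came next, and wild type animal 11, the shallowest library, had no read. The groups overlapped, and the log2 difference, biallelic minus wild type, was -4.48 (SE 1.94, n = 6 and 5).

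Elane, the gene of neutrophil elastase, had the same order at the top. Biallelic values ran from 0 to 27.1 RPM with a median of 0.548 RPM, and wild type values were 76.3, 28.8, 89.7, 5.33 and 0 RPM for animals 7 to 11. Prtn3, proteinase 3, ran from 0 to 3.60 RPM with a median of 0.532 RPM in the biallelic animals and was at 33.9, 11.6, 43.7, 2.03 and 0.340 RPM in the wild type animals. Animal 9 was the highest for all 3 azurophil genes, and the other azurophil protease Ctsg, cathepsin G, was at 73.3, 11.2 and 57.6 RPM in animals 7, 8 and 9 and at most 19.1 RPM elsewhere. The log2 differences were -4.41 (SE 1.62) for Elane and -3.98 (SE 1.30) for Prtn3. Per kilobase of coding-transcript exons, the wild type median of Elane was above that of Mpo (29.3 against 16.5 RPM per kb, n = 5). The ranges overlapped almost wholly. In animal 9, the highest for both genes, Mpo was above Elane (95.75 against 91.2 RPM per kb). Reads of Gm11505, on the strand opposite Mpo, reached 77.3 RPM in these unstranded libraries and cannot be told apart from reads of Mpo. Plppr3, opposite Prtn3, was at 3.06 to 8.86 RPM in the biallelic animals. In wild type animals 7 to 11 it was at 13.9, 7.77, 15.5, 3.55 and 3.06 RPM. Its reads cannot be told apart from those of Prtn3, so the Prtn3 values and difference share this limit.

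The specific granule genes Ngp, Ltf and Camp were also highest in animals 7, 8 and 9, in another order. Ngp, neutrophilic granule protein, ran from 0 to 17.2 RPM in the biallelic animals (median 2.39 RPM) and was at 268.5, 118, 143, 0.254 and 0 RPM in wild type animals 7 to 11. Ltf, the iron-binding protein lactoferrin, ran from 0 to 2.74 RPM (median 1.04 RPM) in the biallelic animals and was at 54.2, 85.5, 40.7, 0.507 and 0 RPM in the wild type animals. Camp, the precursor of an antimicrobial peptide, was at most 1.38 RPM in the biallelic animals and at 42.3, 8.63, 12.6, 0 and 0 RPM in the wild type animals. Ngp and Camp were highest in animal 7 and Ltf in animal 8, where the azurophil genes had peaked in animal 9. For all 3 genes animals 10 and 11 lay within the biallelic range. The log2 differences were -3.81 (SE 2.04) for Ngp, -3.88 (SE 1.57) for Ltf and -3.81 (SE 1.31, fitted without the filter on low values, which Camp did not pass) for Camp.

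Lcn2, the iron-siderophore-binding lipocalin of the specific granules that macrophages and epithelia also make, was abundant in every animal. It ran from 71.04 to 240 RPM in the biallelic animals (median 120 RPM) and was at 301, 224, 235, 174 and 108 RPM in wild type animals 7 to 11. Animal 7 was the highest, and biallelic animal 2, at 240 RPM, came next, above animals 8 and 9. The log2 difference was -0.65 (SE 0.33). Over the 11 animals its log2 level correlated with that of the other tested members at r of 0.27 to 0.67, below every pair among Mpo, Elane, Prtn3, Ngp and Ltf.

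Mmp9, a matrix metalloprotease of gelatinase granules that osteoclasts also make in quantity, and Lcn2 were the members whose 3 highest values were not those of animals 7, 8 and 9. Biallelic values of Mmp9 ran from 7.46 to 30.1 RPM (median 16.9 RPM), and wild type animals 7 to 11 had 27.9, 98.2, 56.02, 82.03 and 44.6 RPM. Of the 5 wild type animals 4 lay above every biallelic animal, animals 10 and 11 among them, and animal 7 lay below 1 biallelic value. The log2 difference was -1.86 (SE 0.41) with all animals and -1.97 (SE 0.52) without animals 7, 8 and 9. Osteoclast genes stood beside it: Acp5 was at 36.8 to 139 RPM, Ctsk at 7.27 to 121 RPM and Atp6v0d2 at 9.17 to 36.9 RPM, all with overlapping groups. Ctsk was highest in animal 8, as was Mmp9. The osteoclast list summed to 119 to 213 RPM (biallelic) and 107 to 388 RPM (wild type), with Calcr and Oscar at 0 reads in 9 and 7 of the 11 animals, and the part of these cells in the Mmp9 difference was not tested.

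The cytosolic pair S100a8 and S100a9 did not keep 1 ratio across animals. S100a8 was expressed in every animal, with 57.7 to 129 RPM in the biallelic animals (median 88.98 RPM) and 600, 469, 714, 120 and 107 RPM in wild type animals 7 to 11. S100a9 ran from 1.34 to 33.8 RPM (median 6.43 RPM) in the biallelic animals and was at 631, 329, 351, 11.3 and 2.38 RPM in the wild type animals. Animals 10 and 11 lay within the biallelic range for both genes. The log2 differences were -1.82 (SE 0.46) for S100a8 and -3.72 (SE 1.29) for S100a9.

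**Figure D1:**
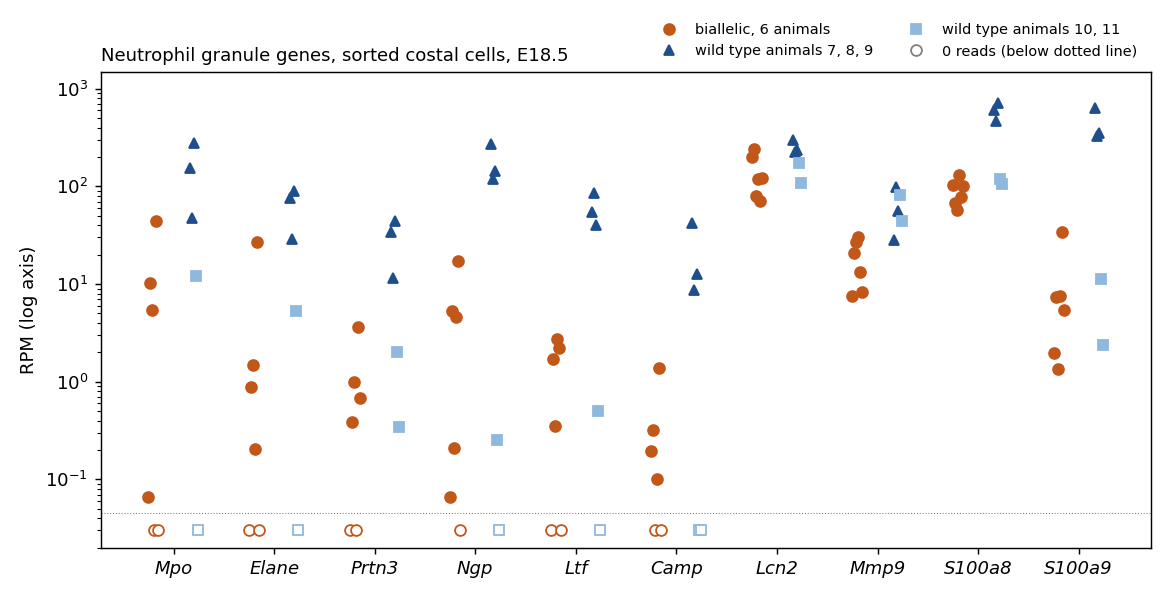
RPM (log axis) of the 10 genes in each chondrocyte animal, with biallelic animals as circles, wild type animals 7 to 9 as triangles and wild type animals 10 and 11 as squares. Open symbols below the dotted line are libraries with 0 reads, and for 8 genes the 3 triangles lie above all other points, Lcn2 and Mmp9 being the exceptions.

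As a share of the reads of both genes, S100a9 made up 51.2% in animal 7 (exact 95% interval 50.2 to 52.2%), 41.2% in animal 8 (39.8 to 42.6%) and 32.95% in animal 9 (31.9 to 34.04%). Biallelic animal 5 was close to these, at 30.2% (27.1 to 33.5%). In the other 7 animals the share was 1.88 to 9.92%, on 320 to 1599 reads of the pair. The intervals cover counting error only, since amplified reads without molecular identifiers are not independent molecules. Per kilobase, the biallelic median of S100a8 was 183 RPM and the wild type median 965 RPM, and for S100a9 they were 12.3 and 629 RPM.

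The balance of the specific granule gene Ngp to the azurophil gene Mpo also varied from animal to animal. Of the reads of both genes Ngp made up 63.7% in animal 7 (62.01 to 65.3%), 71.1% in animal 8 (68.2 to 73.98%) and 33.96% in animal 9 (32.2 to 35.7%). Biallelic animals 2 and 5, at 34.1% (28.2 to 40.4%) and 28.05% (23.9 to 32.5%), were close to animal 9. Biallelic animal 4 had 45 reads of Ngp and none of Mpo (92.1 to 100%). Biallelic animal 3 and wild type animal 10 had the reverse, 3 of 79 and 2 of 98 reads from Ngp (3.80% and 2.04%). Both genotypes thus held animals with mostly Mpo, animal 1 had 1 read of each gene, and animals 6 and 11 had no read of either.

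**Figure D2:**
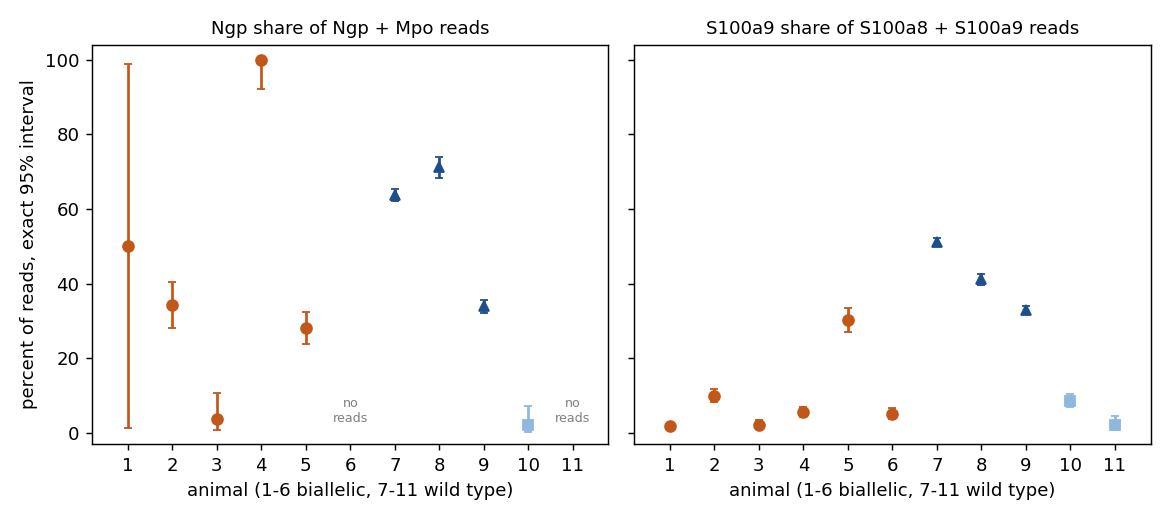
Percent of reads, with exact 95% intervals for counting error, that came from Ngp among Ngp and Mpo reads (left) and from S100a9 among S100a8 and S100a9 reads (right), in chondrocyte animals 1 to 11. Ngp shares range from 2.04% to 100% within these animals, and S100a9 shares above 30% are found in animals 5, 7, 8 and 9.

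How alike the members varied over the 11 animals is given by Pearson's r of log2 RPM, as a description of animals that share genotypes and depths. Mpo with Elane was at 0.97, Elane with Prtn3 at 0.94, Ngp with Ltf at 0.97 and S100a8 with S100a9 at 0.90. Azurophil genes with Ngp and Ltf were at 0.77 to 0.84. Mmp9 was at 0.27 to 0.59 with the other tested members. Groups by granule type were not distinct throughout, since S100a9 was at 0.92 with both Ngp and Ltf, and Lcn2, of the same granules as these, was at 0.46 and 0.50 with them.

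Other genes of the same granules, from lists written for this work, split into those that were high where the members were high and those that were not. Among the 10 listed azurophil genes the 3 of highest mean level were the proteoglycan core gene Srgn (1414 to 1994 RPM), the protease activator Ctsc (564 to 1588 RPM) and the lysozyme gene Lyz2 (583 to 1296 RPM), all abundant in every animal. Ctsc was lowest in animals 7, 8 and 9, at 717, 564 and 574 RPM. Among the specific granule genes the collagenase gene Mmp8 was at 341 to 1528 RPM and the NADPH oxidase subunit Cybb at 226 to 1181 RPM, again with their low values in animals 7, 8 and 9 and, for Mmp8, in animal 5. Adam8 (580 to 1629 RPM), the integrin subunit Itgam (229 to 746 RPM) and the metal transporter Slc11a1 (179 to 571 RPM) of the gelatinase granule and secretory vesicle list had low values in the same 3 animals, and Itgam also in animal 5. Genes named after their values were seen were high with the members: Serpinb1a, an inhibitor of the granule proteases, was at 96.3, 62.5 and 78.6 RPM in animals 7, 8 and 9 and at most 17.03 RPM elsewhere, and the low-level specific granule genes Cd177, Itgb2l, Pglyrp1 and Fcnb were at 3.62 to 16.6 RPM in those animals and at most 0.969 RPM in the others.

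**Figure D3:**
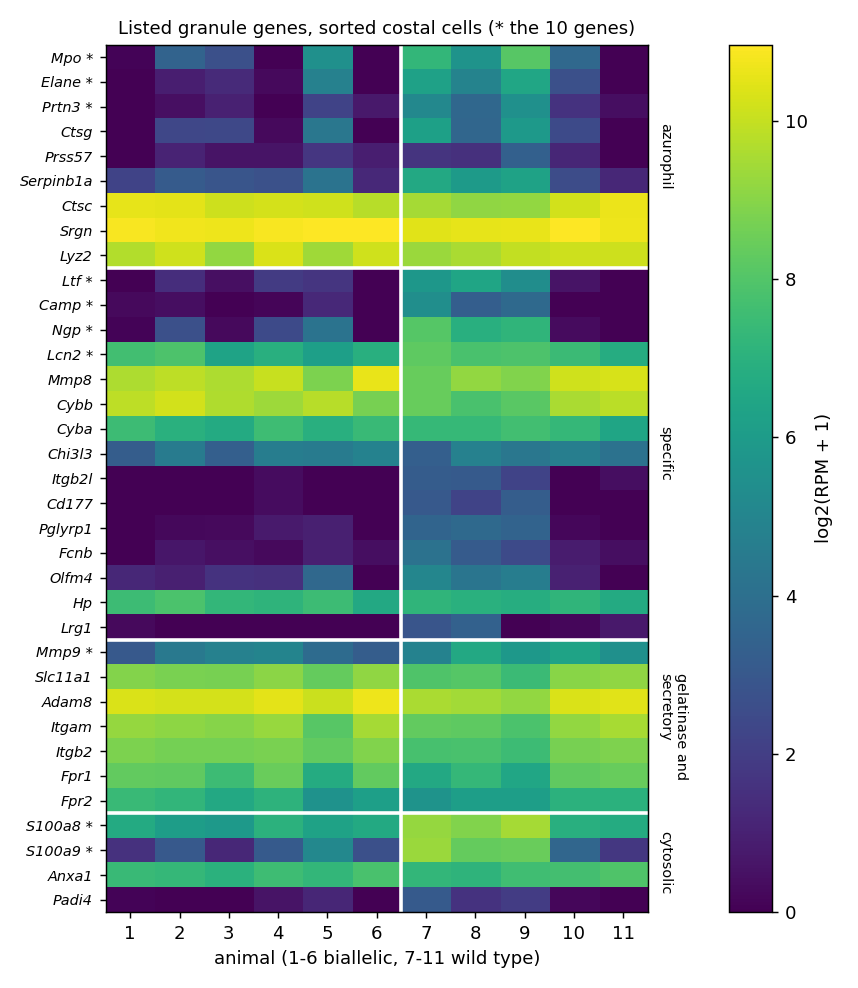
Levels as log2(RPM + 1), by colour, of all genes of the 4 granule and cytosolic lists with a mean of at least 1 RPM (rows, members starred) in chondrocyte animals 1 to 11 (columns). Most starred rows are bright in animals 7 to 9, while Ctsc, Mmp8, Cybb and the gelatinase and secretory rows other than Mmp9 are bright in every animal and dimmer there.

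Counted over the genes that passed the filter of 1 RPM in at least 5 of 11 animals, 9 of the 10 members were tested, and all 9 had lower means in the biallelic animals, with a median log2 difference of -3.81. Over all 11127 genes tested, 6589 were lower and the median was -0.11. Limma called 0 of 11127 genes at an adjusted p under 0.05 (0%), with 1298 genes at an unadjusted p under 0.05, and limma-voom, run on the recovered reads, called 0 as well. No member's groups were free of overlap, where 0.719% of tested genes were lower in every biallelic animal. Without the members, 3 of 6 tested azurophil genes and 3 of 6 tested specific granule genes were lower, with medians of -0.78 and 0.16, and 0 of 6 gelatinase granule and secretory vesicle genes were lower (median 0.52). Without animals 7, 8 and 9 these counts were 4 of 6 (median -0.14), 3 of 6 (0.11) and 6 of 6 (-0.28), so that the gelatinase granule and secretory vesicle genes turned from higher to lower.

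Without wild type animals 7, 8 and 9 the median of the 9 tested members was -0.39, with 6 lower and 3 higher, against a median of -0.10 over all genes. Mpo, Elane and Prtn3 were then at -0.85 (SE 2.44), -1.10 (SE 2.01) and -1.01 (SE 1.56). Ngp, Ltf and S100a9 turned to 1.72 (SE 1.98), 0.43 (SE 1.58) and 0.08 (SE 1.0015), and Camp to 0.07. Lcn2 was at -0.12 (SE 0.41) and S100a8 at -0.39 (SE 0.28). Mmp9 was the 1 member whose difference was as large without these animals as with them, as given above. Leaving out any single animal changed no sign, with Mpo between -6.05 and -3.59 and Mmp9 between -2.11 and -1.65.

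**Figure D4:**
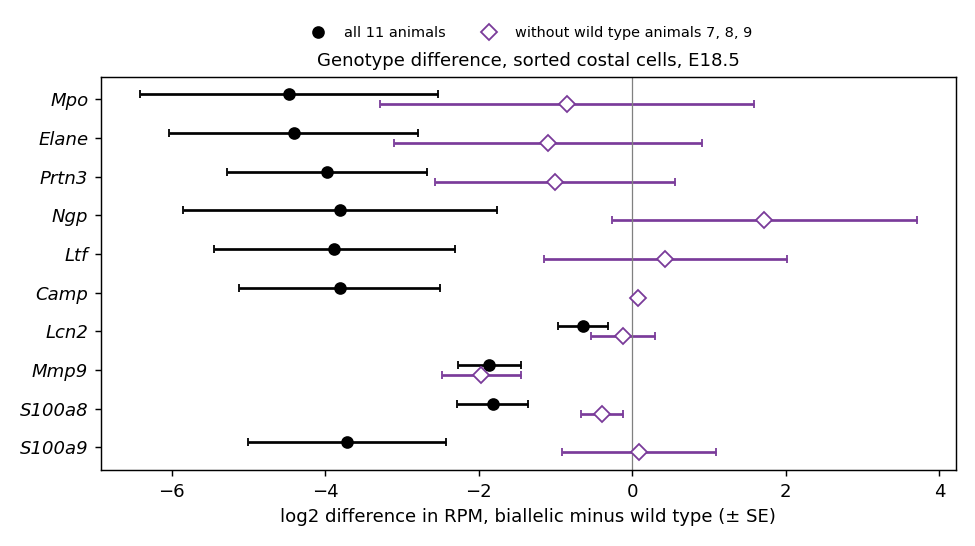
Log2 difference in RPM, biallelic minus wild type, of each gene with all 11 animals (filled circles) and without wild type animals 7, 8 and 9 (open diamonds), bars showing the SE where a fit gave one. Mmp9 lies at -1.86 and -1.97, while Ngp moves from -3.81 to 1.72 and S100a9 from -3.72 to 0.08.

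Of the lists of other blood cells, some moved with animals 7, 8 and 9 and some did not. The macrophage list (13 genes, among them the endotoxin receptor Cd14, the Fc receptor Fcgr1 and Csf1r) summed to 3345 to 4616 RPM in animals 7, 8 and 9 and to 5310 to 6432 RPM in the other 8. Over the 16 mature neutrophil genes the sum was 3008 to 5457 RPM (biallelic) and 3688 to 4065 RPM (wild type), mostly from Il1b (958 to 2448 RPM), Clec4d (752 to 1615 RPM) and Cxcl2 (680 to 1180 RPM), genes that macrophages also express. Ly6g, a surface marker of mature mouse neutrophils, had 0 reads in 9 of 11 animals, animals 7, 8 and 9 among them, and at most 0.203 RPM. Retnlg, a resistin-like gene of neutrophils, was at 16.8, 12.3 and 23.9 RPM in animals 7, 8 and 9 and at most 2.91 RPM elsewhere. The eosinophil, basophil and mast cell list summed to 4.13 to 32.3 RPM (biallelic) and 9.53 to 142 RPM (wild type), led by Cpa3, Mcpt8 and Kit. Mcpt8, a basophil protease, was at 14.5, 40.2 and 13.8 RPM in animals 7, 8 and 9 and at 9.14 RPM in animal 5. The erythroid list, led by Hbb-b1, Hba-a1 and Hbb-b2, was highest in animal 8 (545 RPM), then in animal 5 (319 RPM), and lowest in animal 9 (12.3 RPM). The megakaryocyte list was at 444, 426 and 468.5 RPM in animals 7, 8 and 9, within the biallelic range of 251 to 817 RPM. This sum came mostly from Pf4 (189 to 413 RPM) and Ppbp (25.9 to 474.5 RPM). Itga2b was at 59.7 RPM in animal 8, 13.85 RPM in animal 5 and at most 2.55 RPM elsewhere. Gp5, Gp9 and Gp1bb were also highest in animal 8, at 16.6, 3.97 and 3.6 RPM. The lymphoid list was at 4.98, 10.2 and 4.63 RPM in those animals and at most 3.66 RPM elsewhere. The part of each of these cell types in the members' levels was not tested.

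Of 11 listed genes of granulocyte development, not all of them regulators, 9 were tested. Of these 4 were higher and 5 lower in the biallelic animals, with a median of -0.16 and none called. The most abundant were present in every animal. They were the Fc receptor gene Fcgr3 (987 to 1598 RPM), the cytokine receptor subunit Csf2rb (402 to 686 RPM) and PU.1, listed as Sfpi1 (126 to 214 RPM). Named after their values were seen, Myb, a factor of blood progenitors, was at 8.16, 3.28 and 17.8 RPM in animals 7, 8 and 9 and at most 0.424 RPM elsewhere, and Ms4a3, a gene of granulocyte and monocyte precursors, was at 33.04, 7.08 and 32.4 RPM there and at most 3.32 RPM elsewhere. Cebpe, a factor needed for specific granules, was at 4.98, 3.45 and 4.49 RPM in animals 7, 8 and 9. Elsewhere it was at 0.139 to 2.72 RPM. Cebpb was at 50.3, 31.4 and 37.3 RPM in those animals and at most 16.35 RPM elsewhere. The log2 difference of Cebpb was -2.05 (SE 0.49), and -1.12 without those animals. Runx1 was also highest there, at 122, 126 and 108 RPM. Fcgr3 was lowest there, at 1052, 1060 and 987 RPM, and Csf3r (39.9 to 79.2 RPM) was not highest there. Gfi1, a repressor needed for neutrophil development, had 0 reads in 9 animals.

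The genes whose levels most resembled the members' mean profile included a marker of dividing cells. Over the 11 animals the 8 highest Pearson r with the mean centred log2 RPM of the 9 tested members belonged to Mki67 (0.975), Gm17494 (0.971), Glg1 (0.966), Ncl (0.962), Gas5 (0.961), Eif3e (0.955), R3hdm1 (0.954) and Gata2 (0.953). Mki67, expressed in cycling cells, was at 32.02, 35.4 and 47.9 RPM in animals 7, 8 and 9, at 23.4 RPM in animal 5 and at 7.85 to 15.2 RPM in the rest. Gata2, a factor of blood progenitors and mast cells, was at 30.6, 25.7 and 31.6 RPM in those animals, at 17.03 RPM in animal 5 and at most 1.78 RPM in the rest. Ncl encodes the nucleolar protein nucleolin and Eif3e a translation factor subunit. The 11 points share genotype and the split of animals 7 to 9, and 140 of 11118 other tested genes reached an r of 0.9. Without those animals r was 0.942 for Mki67, 0.927 for Gata2 and 0.819 to 0.934 for the other 6 (n = 8).

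In whole tongue the same genes were close to absent at every stage. Of 180 values (10 genes in 18 libraries) 71 were 0 reads and 176 were below 1 RPM, the highest being 1.50 RPM. The tongue libraries had totals of 36832717 to 92249098 reads, so that 3 reads stood for 0.0325 to 0.0814 RPM. Elane had a single read in 18 libraries and Ngp none at E13.5. The 10 genes together came to 1.53 to 2.64 RPM per library at E13.5, 1.19 to 2.15 RPM at P0 and 0.332 to 1.13 RPM at P20. The same sum was 175 to 2188 RPM in the chondrocyte animals, from tables made separately with another library method, so the values are set side by side with no test.

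Prtn3 and Mmp9 made up most of the tongue reads at E13.5. In the E13.5 tongues Prtn3 was at 0.808 to 1.10 RPM (biallelic) and 0.621 to 1.50 RPM (wild type), while Elane beside it had 0 reads, and at P0 and P20 it was at most 0.105 RPM. Plppr3, the gene that overlaps the annotated span of Prtn3, was at 18.9 to 33.4 RPM at E13.5, 0.678 to 1.45 RPM at P0 and 0.120 to 0.350 RPM at P20, and since no strand setting of the counting is stated, reads of both genes cannot be told apart. Mmp9 was at 0.337 to 1.08 RPM at E13.5, 0.225 to 0.784 RPM at P0 and 0.0884 to 0.353 RPM at P20. Lcn2 had 2 reads in all at E13.5, 0.341 to 0.692 RPM at P0 and 0.03496 to 0.194 RPM at P20.

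**Figure D5:**
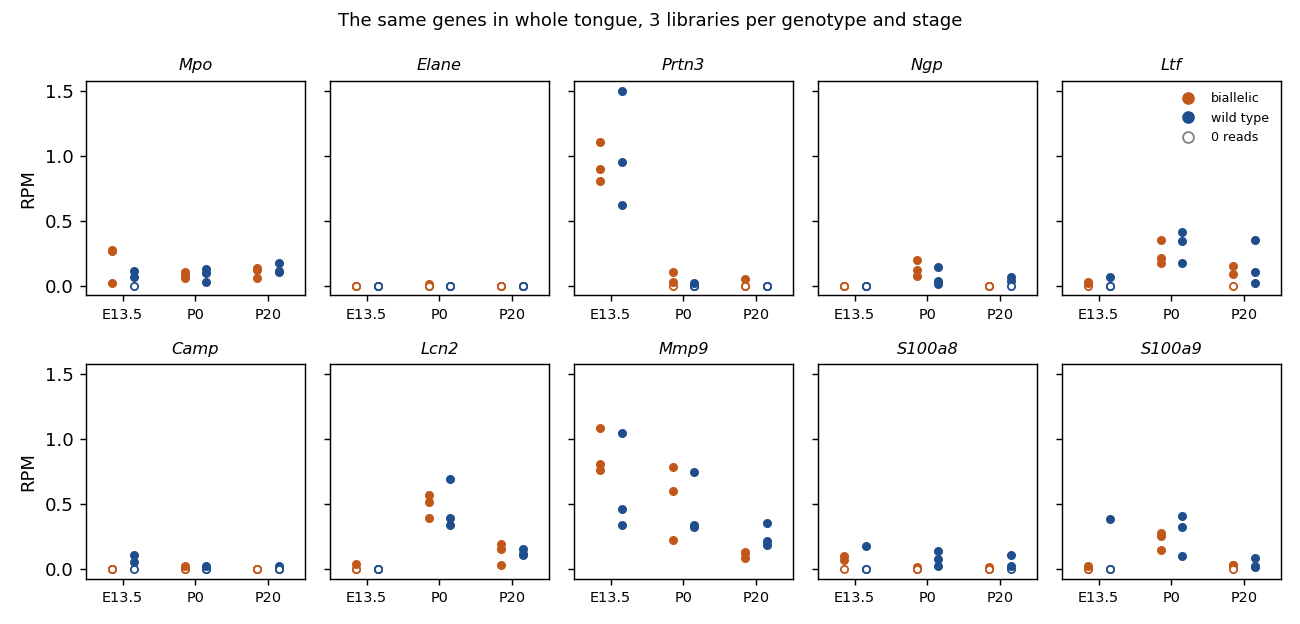
RPM of the 10 genes in whole tongue at E13.5, P0 and P20, 3 biallelic and 3 wild type libraries each, open symbols marking 0 reads. Every point lies at or below 1.50 RPM, and the groups overlap at each stage except for Mmp9 at P20 and S100a8 at P0.

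Genotype made no difference to these genes in the tongue that passed the test. No member passed the filter of 1 RPM in at least 3 of 6 libraries at any stage, so the members were read from fits without it. Limma then called 0 of 27825 genes at E13.5 (0%), 1 at P0 (0.00359%) and 0 at P20 (0%), and 0 of the 10 members at each stage. At each stage 1 member had an unadjusted p under 0.05, always a gene with 0 reads in several libraries, namely Camp at E13.5 (0.0280, limma adjusted p = 0.820), S100a8 at P0 (0.00693, limma adjusted p = 0.762) and Ngp at P20 (0.0178, limma adjusted p = 0.599). The share of all genes at an unadjusted limma p under 0.05 in these fits is not given here, so these counts are not read as a result about the members. In the filtered fits, which hold no member, it was 386 of 11869 genes at E13.5, 412 of 12489 at P0 and 286 of 12693 at P20. S100a8 at P0 had 0 or 1 read per biallelic library and 2 to 10 per wild type library. At P20 the biallelic tongues had 0.0884, 0.122 and 0.132 RPM of Mmp9, and the wild type tongues had 0.189, 0.218 and 0.353 RPM. The groups did not overlap, the log2 difference was -1.12 (SE 0.50, limma adjusted p = 0.599) and -0.17 under log2(RPM + 1), and 3.36% of genes with a read at P20 were lower in every biallelic library (3.13% at P0). At E13.5 and P0 the Mmp9 difference was 0.67 (SE 0.73) and 0.12 (SE 0.53), with groups that overlapped.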

How the data were processed

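The authors deposited 4 tables of log2 RPM per gene. Trim Galore 0.4.2, TopHat2 2.1.0 (tongues), HISAT2 (chondrocytes) and build GRCm38 come from the submitters' processing notes, the read counter being not given in the sources used here. In each library the smallest value equalled 0.9 reads, which stands for 0 reads, and 100% of values below 1000 reads were whole within 0.05 of a read, so reads and the total behind RPM were recovered. Differences are of log2 RPM as deposited, so a gene at 0 reads counts as 0.9 reads, and a deeper library gives it a lower value. Groups and 29 columns (33 labelled samples) follow the labels. Limma 3.58.1 in R 4.3.3 (mean-variance trend, Benjamini-Hochberg adjustment, threshold 0.05) compared genotypes within each table, among genes at 1 RPM or more in 3 of 6 tongue libraries or 5 of 11 chondrocyte animals. The fit was tested on simulated data. Shares have exact (Clopper-Pearson) 95% intervals, and lengths are GENCODE vM21 coding-transcript exons merged. The labels do not say whether replicates shared a litter, so p-values measure the spread between these samples.

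The members and lists were chosen with earlier results of these data known. Anxa1 of the cytosolic list (129 to 242 RPM) and the genes of the lymphoid and squamous epithelium lists are not named in the text of the results. Otherwise the genes named are the members, the 3 of highest mean RPM in a list, the 8 most alike in profile and Plagl1. All others, such as Ctsg, Serpinb1a, Retnlg, Ly6g, Myb, Cebpe, Gfi1 and the markers of the gate, of leukocytes, of cartilage zones and of osteoclasts named at or near 0 reads, and the genes overlapping Mpo and Prtn3, were named after their values were seen. Alternatives were log2(RPM + 1), no filter, a filter at 5 RPM, median centring, listed-gene totals, voom, a replicate block, and leaving out libraries.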

Additional observations from a re-analysis of the deposited data

Results flagged for a closer look

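In RPM, biallelic animal 5 lay far above the other 5 biallelic chondrocyte animals for 6 of the 10 genes. The measure was the gap to its nearest neighbour relative to the group's range (Dixon's 95% critical value). It had 44.04 RPM of Mpo, 27.1 RPM of Elane, 3.60 RPM of Prtn3, 1.38 RPM of Camp, 17.2 RPM of Ngp and 33.8 RPM of S100a9. For normally distributed values chance gives such a value in about 1 in 20 groups, and 20 groups were examined (10 genes in each genotype). RPM values with several animals near 0 are not so distributed, and genes of 1 animal are not independent, so this is a description with no test. On the mean centred log2 profile of the tested members animal 5 was at 0.968 and the other biallelic animals ran from -0.399 to -3.53. The same animal had 319 RPM of the erythroid list, the highest of the biallelic animals.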

How the results depend on the processing

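Without wild type animals 7, 8 and 9, 4 of the 10 chondrocyte differences changed sign: Ltf to 0.43, Camp to 0.0706, Ngp to 1.72 and S100a9 to 0.0825. No other alternative turned any of the 10, and leaving out single animals turned none. Under log2(RPM + 1) Mpo was at -3.02, Elane at -2.89, Prtn3 at -2.49 and Camp at -2.22, smaller because the added 1 RPM raises the low values. On that scale the tongue differences also shrank, Mmp9 at P20 from -1.12 to -0.17 and Ngp at P0 from 1.54 to 0.09. Median centring moved each chondrocyte difference by the same amount, Mmp9 to -1.63 and Lcn2 to -0.42. In the tongue, 7 small differences changed sign when single libraries were left out: Prtn3 at E13.5 (-0.37 to 0.27), at P0 Mpo (-0.44 to 0.66), Lcn2 (-0.0922 to 0.42), Mmp9 (-0.25 to 0.65) and S100a9 (-0.75 to 0.29), and at P20 Mpo (-0.59 to 0.0667) and Lcn2 (-0.80 to 0.44). Prtn3 at E13.5 also turned with median centring (0.0124). Over all genes that passed the filter limma called 2 at P0 and 0 in each other table. The P0 count was 1 with no filter, 1 with median centring, 1 with listed-gene totals, 0 with voom and 0 to 4 without single libraries. With the replicate block it was 0 at P0, as at the other stages. At each stage at least 1 pair of same-numbered libraries deviated with a correlation under 0.1, so the numbers were not taken to pair them, and a block leaves the members' balanced differences as they are. Voom gave no value for Camp or for members in the tongue, which the filter removed. Depth limits the chondrocyte zeros, most of all in animal 11 (3 reads are 1.02 RPM).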
